A study of Mus musculus with 8 samples.

Results

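The MHC class II presentation genes described here are H2-Aa, H2-Ab1, H2-Eb1, Cd74, H2-DMa, H2-DMb1 and Ciita. They were found by their symbols in the expression table of sorted mouse eosinophils, which gave 7 of the 38392 genes measured. Eosinophils were sorted from wildtype mice of the strain labelled C57/BL6, which the study describes as female, with 4 libraries from bone marrow and 4 from the small intestine. The labels give no age and no treatment. Bone marrow cells were gated as CD11b+Ly6G-Ly6C-SiglecF+SSChi and intestinal cells as CD11b+MHC-II-SiglecF+SSChi. The intestinal gate therefore excluded cells with class II protein on their surface, whereas the bone marrow gate did not use it. Intestinal cells were also freed by warm digestion after the epithelium had been stripped, and were enriched on anti-CD11b beads, so tissue, gate and handling cannot be told apart. The question was how evenly the intestinal libraries carry transcripts of class II presentation, and how their levels compare with bone marrow.

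MHC class II molecules are pairs of an alpha and a beta chain that show peptides from ingested material to CD4+ T cells. In this mouse strain the pair is made by H2-Aa and H2-Ab1, while H2-Eb1 encodes a beta chain whose alpha partner gene, H2-Ea, is defective. Cd74, the invariant chain, escorts new pairs and blocks their groove until it is cut away by lysosomal proteases, and the H2-DM pair then exchanges the last fragment for peptide. Ciita, the class II transactivator, is held at the promoters of these genes by factors bound to an X box and a Y box. B cells, dendritic cells and macrophages are the usual carriers of class II, and intestinal epithelium can also carry it.

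Promoter sequences are shown because Ciita acts through them, and because the members differed in how far they moved between the tissues. The RefSeq promoter windows of build GRCm38.p6 reach from 250 bases before to 50 bases after a start site, and 8 of 12 listed class II genes, 4 of them members, had one. The letters searched on both strands were ATTGG, the core of the Y box bound by NF-Y, and AGNNAC, core letters of the X box bound by RFX. Among 32851 promoters, ATTGG was held by 37.41% and AGNNAC by 90.42%. The pair, AGNNAC followed on the same strand by ATTGG after 20 to 40 bases, was held by 3.756%. It was found in 5 of the 8 class II genes, namely H2-Eb1, H2-DMb1, H2-Oa, H2-Ob and H2-Eb2. In H2-Eb1 (chr17:34305617-34305916, plus strand) AGCAAC began 92 bases before the start site and ATTGG followed after a gap of 27 bases. In H2-DMb1 (chr17:34152941-34153240, plus strand) the pair began 95 bases before the start site with a gap of 28 bases. H2-Aa (chr17:34287774-34288073, minus strand) had ATTGG but no pair with these letters. GGCAAC, which departs from AGNNAC only in its first letter, stands before that ATTGG with a gap of 28 bases. The search took exact letters, so a missing pair does not show that an X box is missing. H2-Eb1 and H2-DMb1 are printed as members that hold the pair, of which the first was called higher in small intestine and the second was not called, and H2-Aa as the alpha chain. Capitals mark ATTGG and the AGNNAC paired with it on the strand printed. H2-Eb1 also holds a second pair on the other strand, which is not marked.
H2-Eb1: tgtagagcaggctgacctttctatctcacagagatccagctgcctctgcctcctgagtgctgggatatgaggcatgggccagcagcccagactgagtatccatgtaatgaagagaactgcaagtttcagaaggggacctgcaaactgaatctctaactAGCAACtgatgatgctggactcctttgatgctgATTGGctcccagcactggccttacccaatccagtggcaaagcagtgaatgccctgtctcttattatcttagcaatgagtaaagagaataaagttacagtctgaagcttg
H2-DMb1: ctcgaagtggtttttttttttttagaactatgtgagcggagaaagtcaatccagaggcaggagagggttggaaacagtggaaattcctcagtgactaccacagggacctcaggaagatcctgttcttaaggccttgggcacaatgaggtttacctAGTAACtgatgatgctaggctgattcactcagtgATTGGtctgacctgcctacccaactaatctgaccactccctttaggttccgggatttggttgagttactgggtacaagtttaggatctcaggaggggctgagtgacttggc
H2-Aa: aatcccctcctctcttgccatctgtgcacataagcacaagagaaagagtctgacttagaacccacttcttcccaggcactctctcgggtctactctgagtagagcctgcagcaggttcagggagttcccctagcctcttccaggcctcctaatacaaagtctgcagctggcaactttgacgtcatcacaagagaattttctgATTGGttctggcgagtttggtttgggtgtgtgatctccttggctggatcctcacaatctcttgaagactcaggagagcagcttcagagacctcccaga
These matches are letters in a window and show no binding.

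The libraries held 11508002 to 21289164 reads in genes, and each of the 7 members averaged 10 or more reads. Levels below are normalised read counts, which are reads recovered from the deposited values and divided by the authors' size factor of the library. The 5 eosinophil markers had reads in every library, and summed to 2349 to 3323 in bone marrow and 16954 to 25122 in small intestine. Il5ra was the lowest of them in bone marrow, at 4.78 to 17.7, against 894 to 1415 in small intestine. Siglecf, the gate's own marker, lay at 489 to 642 in bone marrow and 2646 to 3820 in small intestine, and the chemokine receptor Ccr3 at 45.9 to 102 and 13285 to 19653. The granule protein genes Epx and Prg2 went the other way, Epx from 303 to 398 in bone marrow to 12.5 to 29.5 in small intestine (difference -3.94, limma adjusted p = 2.19e-05) and Prg2 from 1417 to 2337 to 116 to 206 (difference -3.62, limma adjusted p = 1.66e-05). Bone marrow libraries also held 299566 to 382700 normalised counts over 6 neutrophil precursor genes, led by Mpo and Elane, against 407 to 505 in small intestine. In sorted bulk RNA, fewer cells of a type and less RNA per cell cannot be told apart.

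The chains of the class II molecule were higher in every intestinal library than in any bone marrow library. H2-Aa (ENSMUSG00000036594; GRCm38 chr17:34282744-34287823, minus strand) had normalised counts of 134, 128, 113 and 112 in BM_1, BM_3, BM_4 and BM_5. In SI_6, SI_7, SI_10 and SI_11 it had 3148, 2162, 434 and 965. Bone marrow libraries were close to each other, while the intestinal libraries were spread over a wide range that did not reach down to bone marrow. The mean rose from 122 ± 11.1 to 1677 ± 1218 (SD, n = 4 each), 13.8 times higher, and the difference on the deposited log2 scale was 3.38 (SE 0.56, limma adjusted p = 0.0017).

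H2-Ab1, the beta chain that pairs with it (ENSMUSG00000073421; chr17:34257689-34269419, plus strand), had 162, 195, 104 and 112 in bone marrow in the same library order. In small intestine it had 2043, 1463, 221 and 644. The groups did not overlap, but the lowest intestinal library, SI_10, was 1.13 times the highest bone marrow library. The difference was 2.51 (SE 0.65, limma adjusted p = 0.0158) and missed the threshold without BM_5 (2.41, limma adjusted p = 0.0545) or without SI_7 (2.23, limma adjusted p = 0.0608).

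H2-Eb1, the beta chain without a working partner gene (ENSMUSG00000060586; chr17:34305867-34316674, plus strand), had the lowest bone marrow level of the chains per kilobase of exon. Its normalised counts were 13, 18.3, 33.5 and 22.3 in bone marrow and 903, 546, 114 and 222 in small intestine. Every intestinal library was above all of bone marrow, the lowest of them 3.40 times the highest bone marrow library. H2-Eb1 had the largest difference among the members, 3.80 (SE 0.61, limma adjusted p = 0.00147), with means of 21.8 ± 8.69 and 446 ± 356 (SD, n = 4 each).

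Cd74, the invariant chain (ENSMUSG00000024610; chr18:60803848-60812652, plus strand), was the most abundant member in small intestine, at 1871 ± 1341 normalised counts per kilobase of exon (SD, n = 4). Per gene it had 259.7, 164, 176 and 194 normalised counts in bone marrow and 5904, 3980, 907 and 1774 in small intestine. The groups were separate, with the lowest intestinal library 3.49 times the highest bone marrow library. The difference was 3.64 (SE 0.55, limma adjusted p = 0.001).

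Ciita, the transactivator (ENSMUSG00000022504; chr16:10480059-10528418, plus strand), was the least abundant member per kilobase of exon, with a mean of 0.963 ± 0.509 among bone marrow libraries and 6.04 ± 4.30 among intestinal ones (SD, n = 4 each). Per gene it had normalised counts of 2.30, 13.7, 10.5 and 10.2 in bone marrow, from 3 to 21 reads a library, and 104.8, 79.0, 25.2 and 21.3 in small intestine. SI_6 and SI_7 stood well above the rest, while SI_10 and SI_11 were nearer to bone marrow, the lower of them 1.56 times its highest library. The difference was 2.12 (SE 0.57, limma adjusted p = 0.0199). It missed the threshold without BM_1 (1.75, limma adjusted p = 0.0557), without SI_6 (1.75, limma adjusted p = 0.0593) and without SI_7 (1.88, limma adjusted p = 0.0718), and after quantile normalisation (1.34, limma adjusted p = 0.11). Ciita also shares 329 of its 9535 bases of exon with Dexi on the opposite strand. Dexi had means of 18.7 (bone marrow) and 56.4 (small intestine), and its part in the Ciita counts was not tested.

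Neither gene of the H2-DM pair, which loads peptide, passed the threshold. H2-DMa (ENSMUSG00000037649; chr17:34119541-34139101, plus strand) had 273, 294, 263 and 156 normalised counts in bone marrow and 233, 98.5, 28.4 and 86.5 in small intestine. SI_6 lay within the bone marrow range and the other intestinal libraries below it. The difference of -1.41 did not pass the threshold (SE 0.55, limma adjusted p = 0.0816), but it did under median centring (-2.31), limma voom (-1.49), a filter that kept genes averaging 10 or more reads (-1.41) and without SI_6 (-1.87). H2-DMb1 (ENSMUSG00000079547; chr17:34153072-34160230, plus strand) had 69.7, 79.6, 72.7 and 43.7 in bone marrow and 95, 48.5, 14.2 and 29.6 in small intestine. SI_6 was above all of bone marrow, SI_7 within its range and the others below, and the difference of -0.71 (SE 0.49) did not pass (limma adjusted p = 0.31). Both values are uncertain for another reason. H2-DMa shares 360 bases of exon with Brd2 on the opposite strand, with means of 2169 (bone marrow) and 1778 (small intestine), and 15.84% of the 75-base stretches of H2-DMb1 occur also in H2-DMb2. How the counting handled strand and reads with several matches is not given in the sources used here.

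**Figure D1:**
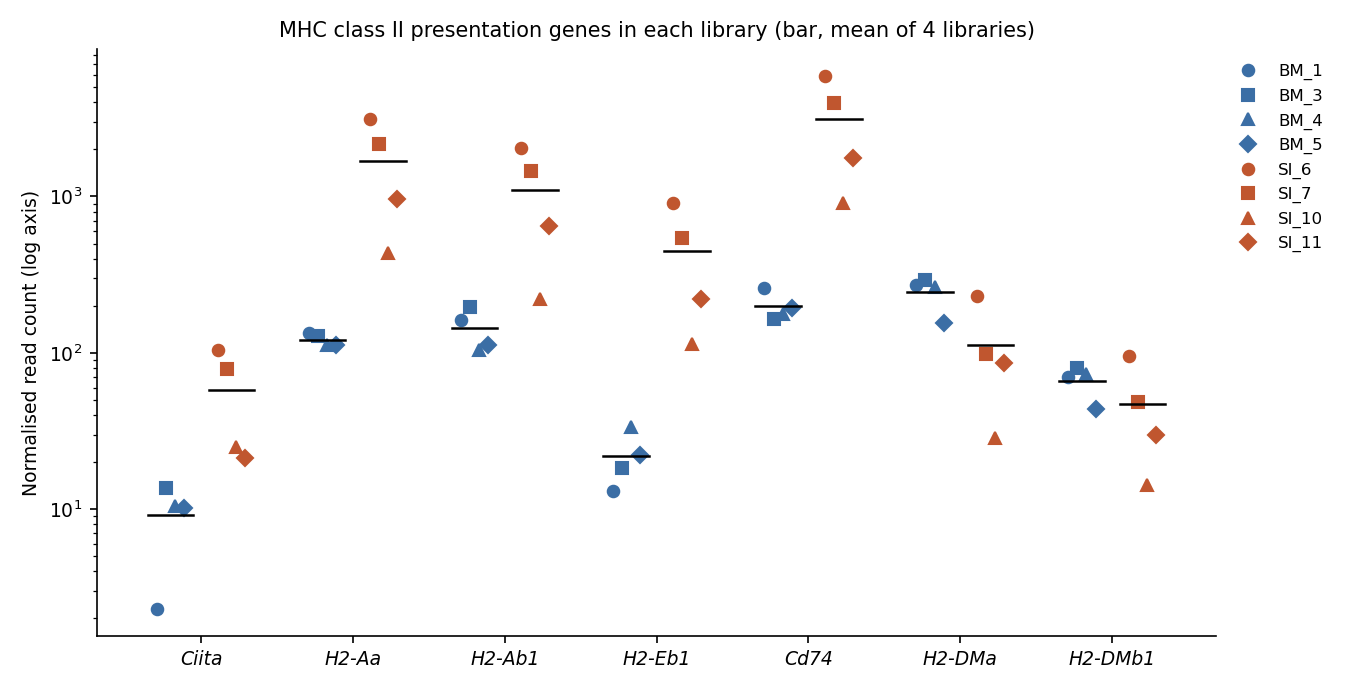
Normalised read count (log axis) of each class II member in every library, with bone marrow in blue, small intestine in orange, 1 marker shape per library and a bar at the mean of 4 libraries. H2-Aa, H2-Ab1, H2-Eb1, Cd74 and Ciita have every orange point above every blue one, while those of H2-DMa and H2-DMb1 overlap, and SI_6 is the highest orange point of each of the 7 genes.

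In all, 5 of the 7 members passed the threshold, each higher in small intestine, and 0 passed as lower, although 1 or 2 did so under 4 of the 15 alternative settings. Among all genes, 34.9% passed in either direction, 22.0% as higher and 12.9% as lower, but among the 16215 genes that averaged 10 or more reads, as each member did, these shares were 63.1%, 34.6% and 28.6%. Over all genes 8465 were higher and 4937 lower, against 4285 and 10216 under median centring and 5954 and 7032 after quantile normalisation. The same 5 members had every intestinal library above every bone marrow library, as did 20.3% of all genes and 36.0% of those averaging 10 or more reads. The median difference was 2.51 over the members, 0.37 over all genes tested and 0.12 over genes averaging 10 or more reads. Without SI_7, 3 members passed, H2-Aa, H2-Eb1 and Cd74.

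The intestinal libraries carried the members unevenly. All 7 were highest in SI_6, which held 45.5% to 52.1% of a member's summed intestinal counts, where an even share would be 25%. SI_6 was also the highest intestinal library for 33.9% of the 16215 genes that averaged 10 or more reads. The order from high to low was SI_6, SI_7, SI_11 and SI_10 for 6 of 7 members and for 9.93% of those genes. Ciita was the exception, with SI_10 slightly above SI_11 (23 against 18 reads).

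The highest intestinal library exceeded the lowest 4.91 times for Ciita, 7.25 times for H2-Aa, 9.25 times for H2-Ab1, 7.93 times for H2-Eb1 and 6.51 times for Cd74. H2-DMa and H2-DMb1, whose means were not higher in small intestine, were spread as widely, 8.17 and 6.68 times. A range of at least 2 log2 units over the intestinal libraries was found for 7 of 7 members and for 9.40% of genes at that read level. Without SI_10 it was found for 2 of 7 members (6.64% of genes) and without SI_6 for 4 of 7 (3.45% of genes). The median SD on the log2 scale over the 7 members was 1.2 in small intestine and 0.41 in bone marrow, against 0.31 and 0.23 over genes at that read level. With Ciita left aside, bone marrow libraries were more alike, their highest over lowest being between 1.2 for H2-Aa and 2.57 for H2-Eb1. For Ciita, at 3 to 21 bone marrow reads, it was 5.96 times there against 4.91 times in small intestine. Its range on the deposited log2 scale was smaller in bone marrow, however, at 1.67 against 2.12.

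Although levels varied between the intestinal libraries, the ratios of Cd74, H2-Ab1 and H2-Eb1 to H2-Aa within a library varied by at most 1.33 times over them. Reads of Cd74 per kilobase of exon were 4.24, 4.16, 4.72 and 4.16 times those of H2-Aa in SI_6, SI_7, SI_10 and SI_11. In bone marrow this ratio was 2.90 to 4.38. H2-Ab1 per H2-Aa, again per kilobase, was 0.753 to 1.001 in small intestine and 1.37 to 2.26 in bone marrow. Per kilobase, H2-Ab1 was thus ahead of its partner in each bone marrow library, whereas in small intestine the pair was near parity, with SI_10 the lowest. Both levels rest on division by all annotated exon, 3798 bases for H2-Aa and 2568 for H2-Ab1. Undivided, their intestinal means were 1677 and 1093 normalised counts. The shift of the ratio between tissues does not depend on these lengths. H2-Eb1 per H2-Aa was 0.449 to 0.56 in small intestine and 0.190 to 0.579 in bone marrow, where it rests on 17 to 35 reads of H2-Eb1.

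The H2-DM genes stood in another proportion to the chains. H2-DMa per H2-Aa was 1.54 to 2.57 in bone marrow and 0.0502 to 0.0988 in small intestine, and H2-DMb1 per H2-Aa was 0.885 to 1.46 and 0.0507 to 0.0740. Neither ratio overlapped between the tissues, and each varied over the intestinal libraries by 1.97 and 1.46 times, less than the genes themselves. The transactivator varied more against the chains, Ciita per H2-Aa being 0.0133, 0.0146, 0.0231 and 0.00881 in SI_6, SI_7, SI_10 and SI_11.

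**Figure D2:**
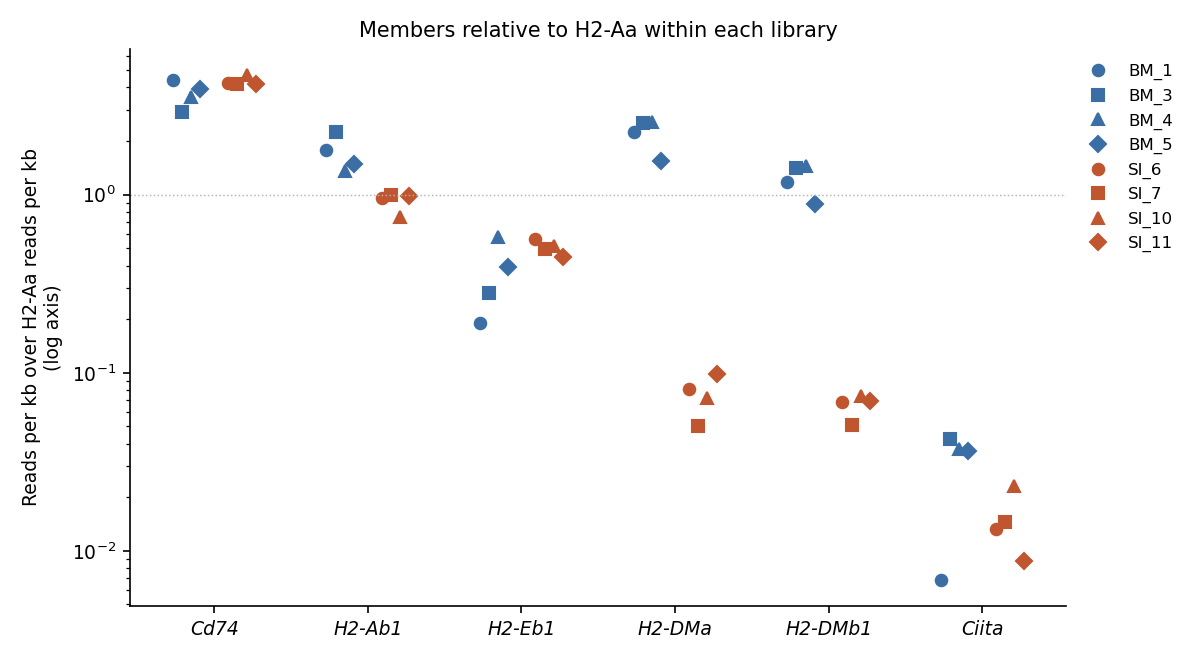
Reads per kilobase of exon of 6 members divided by those of H2-Aa in the same library (log axis), with bone marrow in blue, small intestine in orange and a dotted line at equal levels. Cd74 lies at 4.16 to 4.72 in small intestine, H2-DMa and H2-DMb1 lie below 0.1 there but between 0.885 and 2.57 in bone marrow, and Ciita is lowest.

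Markers of other cell types moved with the members over the intestinal libraries. All 4 plasma cell markers had reads in each intestinal library, and their sum was 26274, 19293, 3925 and 11110 normalised counts in SI_6, SI_7, SI_10 and SI_11, against 14.3 to 98.8 in bone marrow. Its highest library exceeded its lowest 6.69 times, in the same library order as the members' sum, which was 12431, 8378, 1744 and 3742 (7.13 times) and 650 to 913 in bone marrow. Igha, the heavy chain of IgA, had 23591, 17236, 3536 and 10026 normalised counts, and Jchain, which joins IgA units, had 2505, 1998, 353 and 1028.

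All 8 epithelial markers had reads in each intestinal library, and their sum followed the same order too. It was 18004, 7476, 2764 and 3309 (6.51 times), against 56.5 to 100.4 in bone marrow. Krt19, a keratin, had 4386, 1733, 615 and 717, and the adhesion protein Cdh1 had 3341, 1348, 512 and 699. The ratio of H2-Aa to Igha per kilobase was 0.0676 to 0.0937 over the intestinal libraries, a spread of 1.39 times, and that of H2-Aa to Krt19 was 0.345 to 0.657, a spread of 1.90 times. In contrast, the ratio of H2-Aa to Siglecf was 0.874, 0.558, 0.107 and 0.186, a spread of 8.19 times. Its ratio to the macrophage marker Csf1r was 3.74, 2.68, 0.512 and 1.04, a spread of 7.30 times. No ratio was taken to other markers, such as the macrophage marker Mrc1, whose own counts spread 5.42 times. The part of plasma cell or epithelial RNA in the class II levels was not tested.

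Markers of the usual class II carriers varied less. The sum of 8 macrophage markers was 2627, 1969, 1739 and 1957 in SI_6, SI_7, SI_10 and SI_11, in the members' order but with a spread of 1.51 times, and 427 to 558 in bone marrow. Its leading genes differed in pattern, since Csf1r lay at 1280, 1229, 1290 and 1405 while the mannose receptor Mrc1 lay at 231, 128, 59.1 and 42.7. The sum of 8 B cell markers was 2161 to 2832 in small intestine and 1923 to 2392 in bone marrow, led by Ighm and Cd22. The sum of 8 dendritic cell markers was 12366 to 16836 and 91.3 to 180.4, nearly all of it Itgax (12190 to 16613 in small intestine), and the next gene, Zbtb46, lay at 63.3 to 96.3. Eosinophil markers summed to 16954, 20635, 20094 and 25122, lowest in SI_6. Sums of the other lists spread by 1.94 times for monocyte, 1.81 times for 5 T cell and innate lymphoid, 1.33 times for endothelial and 1.24 times for neutrophil precursor markers over the intestinal libraries. Over both tissues their highest counts were those of Ly6c2 and Ms4a3, Il7r and Cd3e, Pecam1 and Cdh5, and Mpo and Elane. No marker of any list was at 0 in all libraries, and the part of these cells in the class II levels was not tested.

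**Figure D3:**
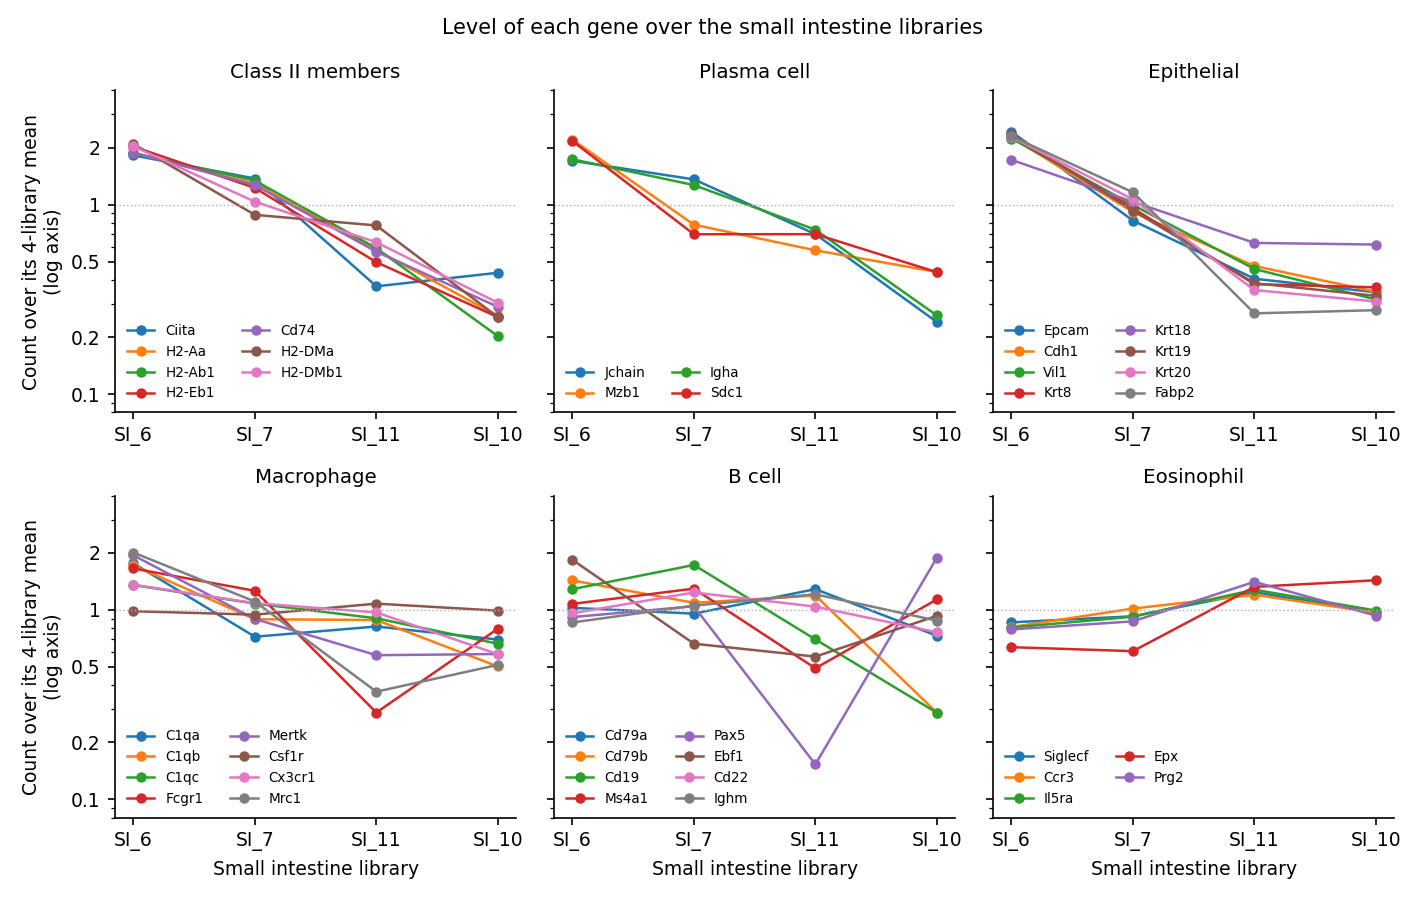
Normalised count of each gene divided by its mean over the 4 small intestine libraries (log axis), with a panel for the class II members and for plasma cell, epithelial, macrophage, B cell and eosinophil markers, and libraries ordered SI_6, SI_7, SI_11, SI_10. SI_6 is the highest library for each member, plasma cell and epithelial marker, whose sums spread 7.13, 6.69 and 6.51 times, while the eosinophil sum spreads 1.48 times and is lowest in SI_6.

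None of the 5 other class II genes passed the threshold, with a median difference of 0.33, against 34.9% of all genes. Only 3 of the 5 averaged 10 or more reads, a level at which 63.1% of genes passed. H2-DMb2, a near copy of H2-DMb1, had 57.5, 44.3, 33.5 and 27.9 normalised counts in bone marrow and 33.8, 18, 14.2 and 13 in small intestine, a difference of -0.96 (SE 0.33, limma adjusted p = 0.0512). It passed under 7 of 15 alternative settings, as lower in small intestine. H2-Oa and H2-Ob, which form the inhibitor of H2-DM, had differences of 0.55 and -0.13 at 5.22 to 20.1 and 8.43 to 33.3 normalised counts over the 8 libraries, but H2-Oa changed sign under median centring and quantile normalisation, and H2-Ob without BM_3. H2-Eb2 had 0 to 5 reads in a bone marrow library and 1 to 7 in an intestinal one, and H2-Ea had at most 1 read in any library, too few for a fold.

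Of 7 factors bound to class II promoters, 1 was higher and 3 were lower in small intestine, with a median difference of -0.52. Their share called, 57.1%, was below the 63.1% of genes averaging 10 or more reads, and under median centring 0 were higher and 5 lower. Rfx5, the subunit of RFX that binds DNA, was at 198, 164, 196 and 159 in bone marrow and 342, 483, 289 and 329.5 in small intestine, a rise of 0.97 (SE 0.22, limma adjusted p = 0.00813). Its partner Rfxap fell by 1.4 (SE 0.22, limma adjusted p = 0.00125), and Creb1, with the most normalised counts of the list, fell by 0.84 (SE 0.17, limma adjusted p = 0.00483). The sum of the 7 factors varied 1.15 times over the intestinal libraries, far less than the members.

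Among 8 genes known to induce Ciita, such as those of the interferon gamma pathway, 5 were higher, 0 were lower and 3 did not pass, with a median difference of 1.19. Their share called, 62.5%, was near the 63.1% of genes averaging 10 or more reads. Irf1, a transcription factor that acts on a Ciita promoter, rose most, from 277 to 337 normalised counts in bone marrow to 1331 to 2123 in small intestine (difference 2.44, SE 0.20, limma adjusted p = 3.91e-05). Jak1, a kinase of the receptor, had the most normalised counts and rose by 1.36 (SE 0.18, limma adjusted p = 0.000514). The sum of the 8 genes was highest in SI_11 and lowest in SI_6, 31864 and 22959 normalised counts, unlike that of the members. Irf8, which was not called, was the only gene of the list highest in SI_6. It had 296, 143, 72.2 and 58.1 in SI_6, SI_7, SI_10 and SI_11, a spread of 5.09 times in the library order of Ciita. Besides Irf1 and Jak1, Ifngr2, Jak2 and Spi1 passed. Under median centring, which moved the median difference of all genes from 0.37 to -0.53, the rises of Rfx5, Ifngr2, Jak1 and Spi1 missed the threshold, while Usf1 (-1.36, limma adjusted p = 0.0146) and Irf8 (-1.52, limma adjusted p = 0.00646) passed as lower.

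All 6 antigen processing enzymes passed, 4 as higher and 2 as lower, with a median difference of 1.77, against 63.1% of genes averaging 10 or more reads. Lgmn, the asparaginyl endopeptidase, rose from 15.8 to 28.0 normalised counts in bone marrow to 327 to 523 in small intestine, a difference of 4.05 (SE 0.23, limma adjusted p = 6.23e-06). Ctss, the cathepsin that cuts the invariant chain, Ctsl and Ifi30 also rose. Ctsb, with the most normalised counts, fell by 1.60 (SE 0.24, limma adjusted p = 0.00105), and Ctsd fell by 0.62 (SE 0.20, limma adjusted p = 0.0433) but missed the threshold without BM_1, BM_3, BM_4 or SI_7. Under median centring the rises of Ctsl and Ifi30 missed the threshold. Ifi30, Ctss and Ctsb had the intestinal library order of most members, with spreads of 5.25, 2.58 and 1.82 times, whereas Ctsl, Ctsd and Lgmn did not.

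Of 3 genes that set how long class II stays on the surface, 2 were higher, with a median difference of 4.26. Their share called, 66.7%, was near the 63.1% of genes averaging 10 or more reads. Marchf1, a ubiquitin ligase that removes class II from the surface, had 55.2, 48.9, 52.6 and 49.3 normalised counts in bone marrow and 1085, 1152, 851 and 1162 in small intestine. It was even within both tissues, and its difference was 4.26 (SE 0.18, limma adjusted p = 1.51e-06). Cd83, which opposes that ligase, had 0, 4.56, 6.70 and 9.30 in bone marrow and 263, 193, 71.1 and 92.5 in small intestine, a difference of 4.39 (SE 0.66, limma adjusted p = 0.000975), with SI_6 highest. Marchf8, a related ligase, had a difference of -0.11 (SE 0.25, limma adjusted p = 0.757).

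**Figure D4:**
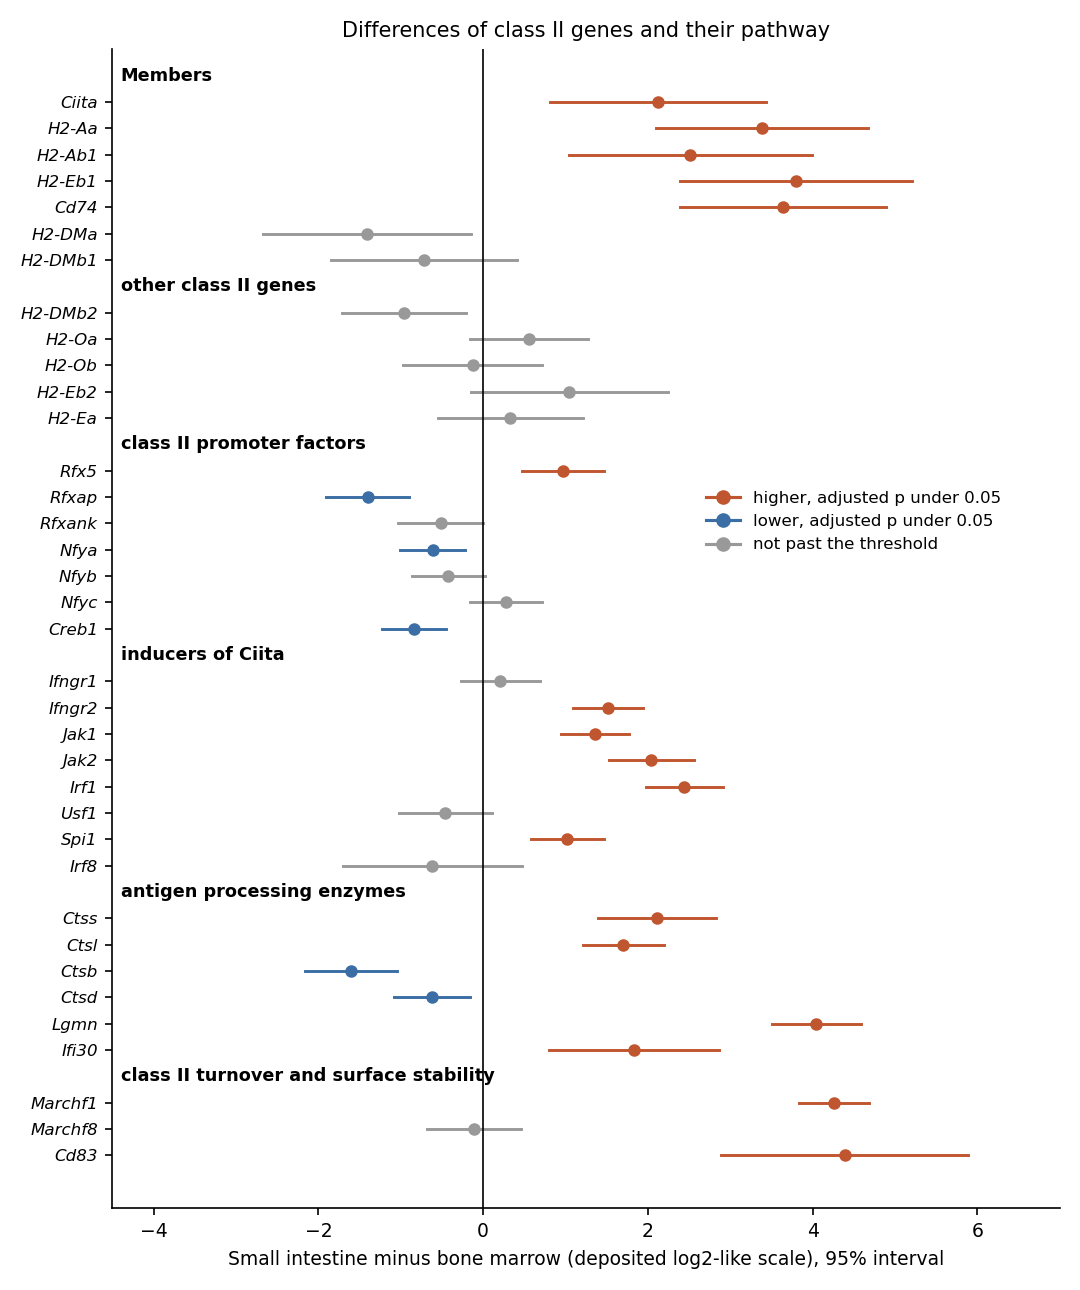
Log2-scale difference of small intestine from bone marrow with its 95% limma interval before adjustment, for the 7 members and the 5 pathway lists. Of the members, 5 lie between 2.12 and 3.80 and the H2-DM genes below 0, and among the other genes Cd83 (4.39), Marchf1 (4.26) and Lgmn (4.05) lie farthest to the right.

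As a description, the genes whose deposited values over the 8 libraries were most like the mean of the members were Galnt7 (Pearson's r = 0.993), Plekhh1 (0.984), the immunoglobulin gene Igkv17-127 (0.984), Myo15b (0.982) and Ifi30 (0.982), among 13196 genes averaging 10 or more reads. Igkv17-127 had 0.766 to 3.91 normalised counts in bone marrow and 2299, 851, 35.0 and 147 in SI_6, SI_7, SI_10 and SI_11. Most like Ciita were Plekhg6 (0.981), Mast4 (0.973), Olfm4 (0.972), Plpp2 (0.972) and Cenpv (0.970). The 8 points are 2 groups of libraries, so these correlations hold both the step between the tissues and the spread within the intestine.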

How the data were processed

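RNA of 8 libraries was converted to amplified cDNA and sequenced from a single end. The authors aligned reads to GRCm38 (Ensembl release 86), counted them per gene with nf-core/rnaseq and applied the variance stabilisation of DESeq2 in R 4.0.3, and the values they deposited are on a log2-like scale. Neither the aligner nor the handling of strand and of reads with several matches is given in the sources used here. Column names gave the tissue but not the single sample, so libraries are named by column (bone marrow: BM_1, BM_3, BM_4, BM_5, and small intestine: SI_6, SI_7, SI_10, SI_11). Whether they came from separate mice is stated for the study but not library by library, and p-values measure the spread between these libraries.

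The transformation was inverted from its shared lowest value (0.92971568, 0 reads), which gave whole reads within 0.05 for 100% of values, with size factors of 0.721 to 1.53. Tissues were compared with limma 3.58.1 in R 4.3.3 (constant prior, no covariate, no filter) on the deposited values of all 38392 genes. P-values are 2-sided and adjusted by Benjamini-Hochberg over all genes, with a threshold of 0.05. The fit was tested on simulated data, where calls of genes with a mean under 10 reads were less reliable than with a trended prior. Differences are small intestine minus bone marrow, and they understate the change of genes with few reads. Alternatives were median centring, quantile normalisation, limma voom on the recovered reads, log2 of the normalised count plus 1 or 5, a filter at a mean of 10 reads, a trended and robust prior, and leaving out each library. Positions and exon lengths came from GENCODE M21, where all 38392 identifiers were found.

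Members and lists were chosen with earlier results of these data known, and 2 genes of the lists are not reported here. Named are all members and other class II genes, the largest called rise and fall and the gene with the highest normalised counts of each other list, genes not called in lists of up to 5 genes, the 2 markers with the highest counts of each cell type, and the 5 genes most like the members or Ciita. Predicted genes, RIKEN clones, clone-based symbols and pseudogenes were left out of the likeness. Il5ra, Epx, Prg2, Sdc1, Mzb1, Ifngr2, Jak2, Spi1, Usf1, Irf8, Ctss, Ctsl, Ctsd and Ifi30 were named after their values were seen. March1 and March8 were matched by identifier as Marchf1 and Marchf8. H2-Ab1, Cd74, Ciita and H2-Ea had no promoter window. Tables and plots were made in Python 3.11.15 (pandas 2.3.3, numpy 2.4.6, matplotlib 3.10.9).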

Additional observations from a re-analysis of the deposited data

Results flagged for a closer look

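Among 92 groups of 4 values examined, 3 had a library set apart from the others, where the gap to its nearest neighbour, as a share of the whole range, exceeded Dixon's 95% critical value. At that value chance gives about 1 in 20 groups, or 4.6 here. H2-Eb2 in small intestine was lowest in SI_11 (1 read, against 6 to 7 in the others), with a share of 0.942. H2-Ea in bone marrow was highest in BM_5, which had 1 read against 0 in the others (share 1). The sum of monocyte markers in small intestine was lowest in SI_11, 71.1 normalised counts against 124 to 138 (share 0.845). None of the 7 class II members was set apart in this way.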

How the results depend on the processing

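H2-Aa, H2-Eb1 and Cd74 kept their direction and passed the threshold under all 15 alternatives, with differences of 2.48 to 3.91, 2.90 to 4.31 and 2.74 to 4.12. Leaving out 1 library at a time gave 3 to 5 members called and 3 to 5 higher, the lowest without SI_7, and 0 to 1 lower. The count of lower members, 0 in the report, was 2 under median centring, 1 under limma voom and 1 among genes averaging 10 or more reads. Ciita fell to 1.34 under quantile normalisation (limma adjusted p = 0.11) and ranged from 1.75 to 2.46 with libraries left out. H2-Ab1 ranged from 2.07 to 3.13 with libraries left out. H2-DMa passed the threshold at -2.31 under median centring, -1.49 under voom and -1.41 under the read filter, where fewer genes were tested, and ranged from -1.87 to -0.91 with libraries left out. H2-DMb1 passed under median centring at -1.61 (limma adjusted p = 0.00385). For the other changes the cause was not tested. No called difference changed sign, while H2-Oa, H2-Ob, H2-Ea, Ifngr1, Nfyc and Marchf8, which were not called, changed sign with the scaling or the libraries used. The other class II genes, with 0 called in the report, had 1 to 2 called under 7 alternatives. No paired analysis was possible because the labels number the samples of the 2 tissues without a shared number. Depth limits Ciita in bone marrow and H2-Eb2 and H2-Ea in both tissues.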
